A study of Mus musculus with 24 samples.

Results

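*Apoe*, *Lpl*, *Abca1*, *Abcg1*, *Lrp1*, *Vldlr*, *Clu*, *Lipa* and *Apod*, genes that carry, receive, digest or export lipoprotein lipid, were followed through the cell classes of the mouse brain. They were chosen by gene symbol, and these 9 of the 32288 listed genes were found once each in all 24 libraries. Lipoprotein particles of the brain are made locally, largely by astrocytes, because plasma lipoproteins hardly pass the blood-brain barrier. ATP-binding cassette transporters load cholesterol and phospholipid onto apolipoproteins, receptors of the low-density lipoprotein family take the particles up, and lysosomal acid lipase frees the cholesterol again. Microglia that take up debris or meet protein deposits are known for high levels of *Apoe* and *Lpl*.

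Single nuclei came from 6 mice of the genotype *Pdgfb* ret/ret, called mutants, and 6 controls of the genotype *Pdgfb* ret/wt, all of the strain B6.Pdgfbtm3Cbet. The allele, which lacks the motif that holds the growth factor PDGF-B near the secreting endothelial cell, is carried in the whole body, and controls carry 1 copy of it. Calcified vessels form in the deep brain of the mutants, and the study asked which state microglia take there. The deep brain (pallidum, thalamus and hypothalamus, midbrain and pons) and the cortex (cerebral cortex with hippocampus) of each mouse gave 1 library each. All mice were female except control mouse 6. The study's protocol gives an age of 5 months for all mice, and by the age label of each sample, in both genotypes, mice 1 to 3 had reached 5 months and up to 18 days, and mice 4 to 6 had reached 4 months and 7 to 24 days. Mutants and controls 1 to 4 of equal number had the same age to the day, and so had mutant 5 and control 6, and mutant 6 and control 5. Unique molecular identifiers (UMIs) were summed per gene, so the alleles could not be told apart and the genotype labels were not checked by them.

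Libraries held 23625232 to 96459036 UMIs. Kept nuclei of deep brain libraries had median depths of 3547 to 7314.5 UMIs. The cortical libraries of mutants 1 to 4 and of controls 1, 3 and 4 were shallow, with medians of 804 to 1160.5 UMIs, and the other cortical libraries had 4597 to 8054. These medians cover all kept nuclei, and shallow and deep cortical libraries below are named by them. Of cortical barcodes in controls 1, 2 and 6, 6137 of 9259, 4073 of 6974 and 4753 of 7242 had too few genes to be kept. The largest shares in mutants were 4856 of 14346 (mutant 1) and 2487 of 7082 (mutant 3). Controls 2 and 6, deep by their medians, held 28224094 and 34603641 UMIs, within the range of shallow libraries (23625232 to 49807261). Of the 62602 cortical nuclei named neurons, 33924 fell into a cluster with a median of 824 UMIs. Cortical library medians within the tested classes were 1869 to 4310 UMIs in microglia, 3049 to 8567.5 in astrocytes and 2018 to 5924 in oligodendrocytes. They were 1809 to 12872 in endothelial cells and 2409 to 8192 in fibroblasts. Any pair of libraries shared at most 220 barcodes, which was 1.99% of the smaller library. Nuclei were assigned to classes by markers that include none of the 9 genes, and the 9 genes were left out of the clustering. Microglia numbered 2277 nuclei in the deep brain and 1073 in the cortex, astrocytes 10417 and 1642, endothelial cells 669 and 248, fibroblasts 1482 and 458, and oligodendrocytes 30246 and 6973. A level below is given in CPM, the UMIs of a gene scaled in the usual way by all UMIs of the nuclei of that class in a library.

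*Apoe*, the main lipid carrier of the brain, lies on the minus strand of chr7:19696109-19699188 (GRCm38, ENSMUSG00000002985). In the deep brain its level per library was 2460 to 6604 CPM in macrophages, with a mean of 4404 ± 1184 (SD, n = 11). Astrocytes followed with 2844 ± 382 CPM (SD, n = 12) and ependymal cells with 2613 ± 828 CPM. The ranges of these classes overlapped, and so did those of each next pair down to oligodendrocytes and microglia. Choroid plexus epithelium had 967 ± 432 CPM (n = 6), endothelial cells 921 ± 343, fibroblasts 833 ± 204 and oligodendrocyte precursor cells 562 ± 80.6. Mural cells had 532 ± 180 CPM (n = 9), oligodendrocytes 365 ± 89.3 and microglia 270 ± 128. Neurons were lowest with 57.5 ± 13.9 CPM, and their highest library (88.9 CPM) lay below the lowest library of microglia (132 CPM). In the cortex the order opened in the same way, with macrophages at 3730 ± 1278 CPM (n = 4) and astrocytes at 3704 ± 952 CPM. Microglia (211 ± 131 CPM) and neurons (93.0 ± 67.1 CPM) stood last there among the 8 classes with at least 3 libraries. The cortical macrophage cluster also had 6 of 6 T cell markers above 2-fold the level of other nuclei, and the share of T cells in it was not tested. In the deep brain T cells formed a cluster of their own.

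A UMI of *Apoe* was found in 98.5% of deep brain astrocyte nuclei of mutants and in 98.3% of those of controls. It was found in 39.0% of mutant microglia (504 of 1292 nuclei) and in 32.7% of control microglia. Neurons, a class that is not a known source of *Apoe* in health, held a UMI in 37.7% and 35.7% of nuclei. Neurons were also deeper, with library medians of 6466.5 to 11943.5 UMIs against 1895.5 to 2617 in microglia and 2771 to 4356.5 in astrocytes. At their lower depth, control microglia had a smaller share than neurons and mutant microglia a slightly larger one. These shares were not read as expression, and the comparisons rest on levels in CPM.

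*Clu* (chr14:65968483-65981547, plus strand, ENSMUSG00000022037) encodes clusterin, also called apolipoprotein J, a secreted chaperone that is carried on brain lipoproteins. Its deep brain levels were 934 ± 135 CPM in astrocytes, 871 ± 279 in ependymal cells and 611 ± 239 in choroid plexus epithelium, with overlapping ranges. In the cortex astrocytes had 2202 ± 737 CPM and fibroblasts 333 ± 160 CPM, without overlap. Choroid plexus epithelium of the cortex, which had at least 10 nuclei in 2 libraries, had 580 and 1002 CPM there, and the higher value lay within the range of astrocytes. *Apod* (chr16:31296192-31314808, minus strand, ENSMUSG00000022548), which encodes a lipocalin that binds small lipids, had 2003 ± 444 CPM in deep brain fibroblasts. Oligodendrocytes came next with 981 to 1632 CPM (mean 1316 ± 239), above every library of the following class, endothelial cells, with 476 ± 213 CPM.

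*Abca1* (chr4:53030787-53159895, minus strand, ENSMUSG00000015243) and *Abcg1* (chr17:31057675-31117988, plus strand, ENSMUSG00000024030) encode the exporters that pass cholesterol to lipid-poor apolipoproteins and to formed particles. *Abca1* levels in the deep brain were 589 ± 345 CPM in macrophages, 510 ± 72.2 in microglia, 399 ± 57.9 in astrocytes and 307 ± 49.6 in fibroblasts, each range overlapping the next. Neurons had 16.1 ± 3.03 CPM. *Abcg1* was highest in oligodendrocytes, whose 160 to 198 CPM did not overlap the next class, oligodendrocyte precursor cells (84.3 ± 16.4 CPM), which microglia followed with 74.7 ± 25.4 CPM.

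Of the receptors, *Lrp1* (chr10:127538161-127621148, minus strand, ENSMUSG00000040249), a large endocytic receptor of *Apoe* particles, reached 478 ± 81.9 CPM in deep brain fibroblasts. Precursor cells had 421 ± 39.0 CPM, mural cells 395 ± 147, microglia 341 ± 58.4 and astrocytes 286 ± 41.2, while oligodendrocytes had the lowest level with 17.1 ± 3.62 CPM. *Vldlr* (chr19:27216484-27254231, plus strand, ENSMUSG00000024924), the very low-density lipoprotein receptor, had the opposite extreme. Its level was 184 ± 17.6 CPM in oligodendrocytes, 112 ± 42.4 in choroid plexus epithelium and 85.8 ± 7.19 in precursor cells.

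Among the lipase genes, *Lipa* (chr19:34492318-34527474, minus strand, ENSMUSG00000024781), lysosomal acid lipase, had 110 ± 30.8 CPM in deep brain endothelial cells, 86.9 ± 38.7 in macrophages and 85.8 ± 9.06 in oligodendrocytes. *Lpl* (chr8:68880491-68907448, plus strand, ENSMUSG00000015568), the lipase that splits particle triglycerides, had its highest deep brain mean in microglia with 24.2 ± 24.9 CPM, and macrophages had 10.0 ± 14.5 CPM. In the cortex its highest means were 11.0 ± 2.62 CPM in neurons and 8.59 ± 6.87 CPM in microglia. Levels were not compared between genes, and the differences between classes were not tested.

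**Figure D1:**
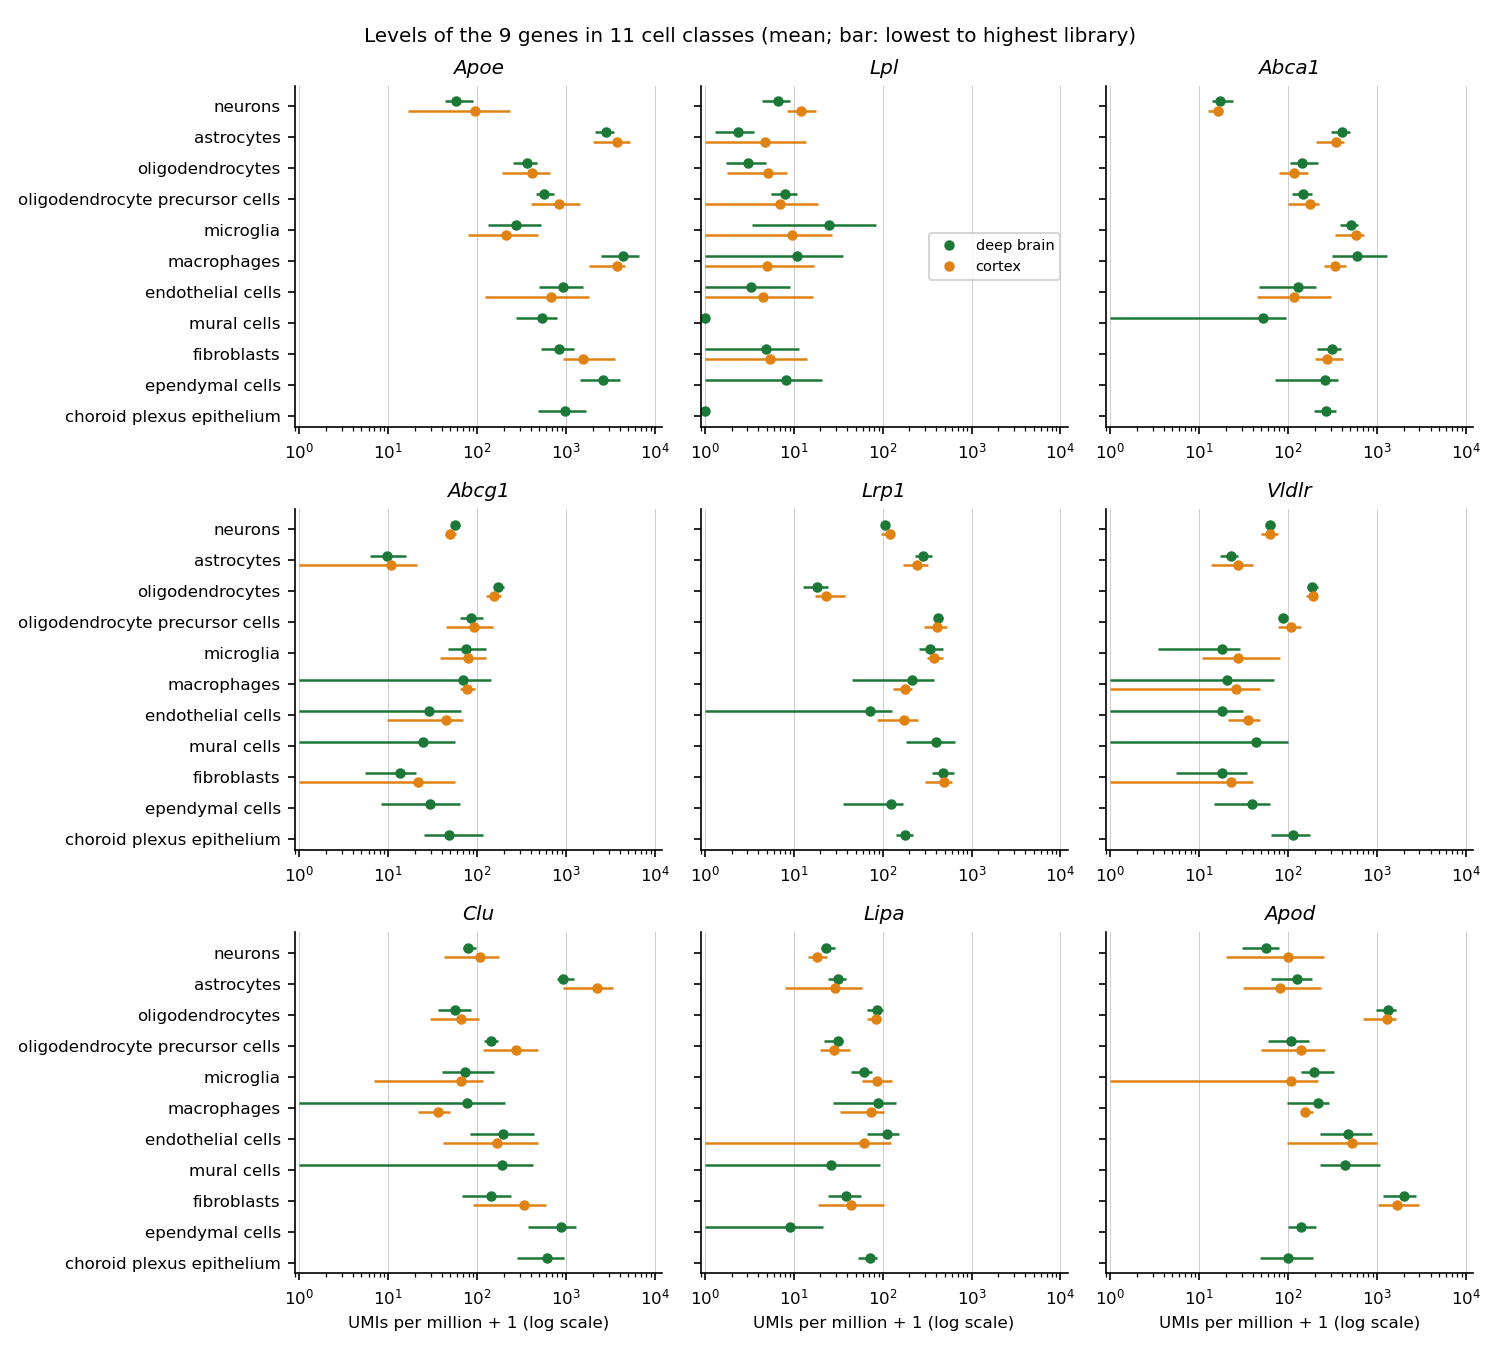
Level of each of the 9 genes (CPM + 1 on a log axis) by cell class in the deep brain and the cortex, with points for the mean over libraries and bars from the lowest to the highest library. *Apoe* and *Clu* peak in astrocytes among the large classes, *Apod* in fibroblasts and oligodendrocytes, and *Abcg1* and *Vldlr* in oligodendrocytes.

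The first comparison asked whether the 9 genes differ between mutant and control microglia. In the deep brain *Apoe* of mutant microglia was 238 CPM in the lowest library, 291 in the median and 522 in the highest. In controls the lowest, median and highest values were 132, 195 and 227 CPM. All 6 mutant libraries lay above all 6 controls, although mutants 1, 2 and 5 (241, 241 and 238 CPM) lay close above the highest control and mutants 3 and 4 were far higher (519 and 522 CPM). *Apoe* rose by 0.88 on the log2 scale (SE 0.18, 95% interval 0.52 to 1.24, 1.84-fold, edgeR adjusted p = 0.0397). It was the 1 gene called of the 7 members that passed the filter on low counts, in a comparison where 0.151% of 7300 tested genes were called (11 genes).

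That call was close to the threshold. It did not hold with DESeq2 (adjusted p = 0.164) and held in 4 of the 12 fits that left out a single library, with log2 changes from 0.73 to 0.98 and adjusted p from 0.00852 to 0.169. Without mutant 3 the change was 0.74 (adjusted p = 0.169), and without mutant 4 it was 0.73 (adjusted p = 0.056). Mutants 3 and 4 also had the highest *Apoe* of all deep brain libraries in neurons (79.0 and 88.9 CPM, against 48.5 to 55.7 in the other mutants and 42.9 to 66.3 in controls). With both left out, which was chosen after seeing the data, *Apoe* of microglia was 0.48 higher on the log2 scale (SE 0.14, adjusted p = 0.259). Summed markers of other classes had higher means in mutants, with overlapping ranges. Nuclei with a UMI of *Aqp4* or *Mrc1* had been removed, so the sums rest on the other markers of the lists. The summed astrocyte markers in microglia were 205 CPM in mutants (range 139 to 351) and 167 in controls (105 to 220), and the summed macrophage markers were 7.70 (0 to 43.8) and 3.74 (0 to 19.4). Their part in the result was not tested.

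A small cluster of microglia carried the markers of calcification-associated microglia (CAM), namely *Axl*, *Flt1*, *Spp1*, *Cd74*, *Csf1*, *Ank*, *Itgax*, *Igf1* and *Cst7*, and all 9 were over 2-fold higher there than in other microglia. The clustering used neither these markers nor the lipoprotein genes. The name CAM-like needed at least 3 of these markers over 2-fold higher and at least 1 among the leading genes, so their excess is partly the naming rule. The study defined CAM in these same data by genes that include *Apoe* and *Lpl*, so high levels of both here are no independent support. Of the 38 CAM-like nuclei of the deep brain 35 were from mutants, which held 4, 5, 11, 1, 5 and 9 of them in mice 1 to 6, and 3 were from controls. Pooled over libraries, *Apoe* was 1856 CPM in CAM-like nuclei (198 UMIs, exact Poisson 95% interval 1606 to 2133) and 243 CPM in all other microglia (230 to 258). *Lpl* was 862 CPM (92 UMIs, 695 to 1057) against 6.43 CPM (4.40 to 9.08). These intervals cover counting error only, and a cluster set against the rest is a description without a test.

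For none of the other 7 members was the level in CAM-like nuclei higher by that much. *Abca1* was 478 CPM (356 to 628) in CAM-like nuclei and 507 in other microglia, and *Lrp1* was 375 (268 to 510) and 337. *Abcg1* had 46.9 CPM (15.2 to 109) against 74.6, and the interval of *Apod*, at 141 CPM (78.7 to 232), covered the level of other microglia. *Clu*, with 18.7 CPM (2.27 to 67.7) against 73.8, was the 1 member whose interval lay wholly below the level of other microglia. *Lipa* had 103 CPM (51.5 to 184) against 59.9, and *Vldlr*, with 3 UMIs, 28.1 CPM (5.80 to 82.2) against 17.3.

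Without the CAM-like nuclei, *Apoe* of mutant microglia had a lowest, median and highest level of 187, 214 and 507 CPM, and that of controls 132, 196 and 227 CPM. The groups then overlapped, and the difference was 0.59 on the log2 scale (SE 0.20, adjusted p = 0.49). Of the 38 nuclei left out 35 were from mutants and *Apoe* was high in them. A lower mutant level was therefore fixed in advance. The summed CAM markers of all microglia were 296 CPM in mutants (212 to 444) and 139 in controls (102 to 172), without overlap, although mutant 4, with the highest *Apoe*, had 1 CAM-like nucleus.

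*Lpl* did not pass the filter on low counts in microglia. Its levels were 9.82, 21.3 and 82.9 CPM in mutants (87 UMIs in all) and 2.43, 6.96 and 50.9 CPM in controls (37 UMIs), as lowest, median and highest. The groups overlapped, and fitted without the filter the difference was 0.98 (SE 0.31, adjusted p = 0.199). Without the CAM-like nuclei 16 UMIs remained in mutants, at 2.12 to 9.06 CPM per library, and the controls had 2.43 to 21.2 CPM. A UMI of *Lpl* was present in 2.79% of mutant and 1.52% of control microglia, and in 4.51% and 5.09% of neurons, which were deeper. By level the order was reversed, with a deep brain mean of 24.2 CPM in microglia and 5.73 CPM in neurons.

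**Figure D2:**
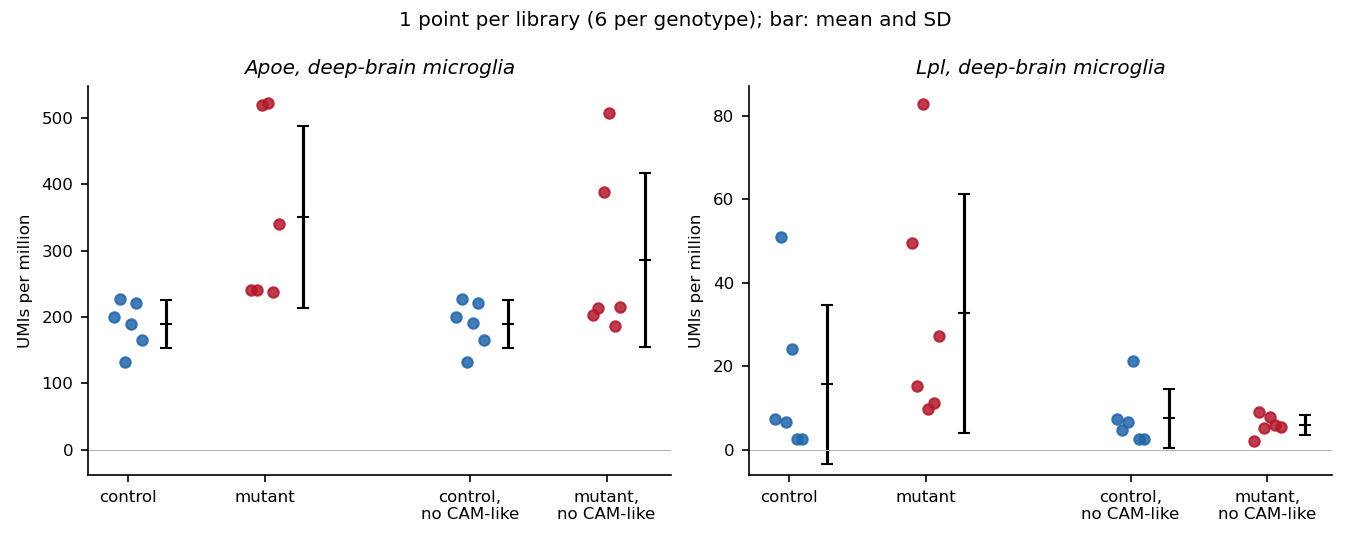
*Apoe* and *Lpl* levels (CPM) in deep brain microglia of each library, for all microglia and without the CAM-like nuclei, with the mean and SD of 6 mutants and 6 controls. For *Apoe* the groups separate among all microglia and overlap once the 38 CAM-like nuclei are left out. Of these nuclei 35 are from mutants, and *Apoe* is high in them, so leaving them out had to lower the mutant level.

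*Apod* of deep brain microglia was 155, 232 and 326 CPM in mutants and 139, 152 and 203 CPM in controls (lowest, median and highest). The ranges overlapped, and the difference of 0.52 (SE 0.15) did not pass with the filter on low counts (adjusted p = 0.297) but did without it (0.53, adjusted p = 0.00817). That was the 1 pass among 23 alternatives (adjusted p up to 0.627), in a setting where more of all genes passed too. *Abcg1* was 48.2 to 77.0 CPM in mutants and 46.1 to 124 in controls (log2 difference -0.46, SE 0.20, adjusted p = 0.72). *Abca1* was 379 to 580 CPM against 419 to 607, a difference of -0.09 with an interval of -0.31 to 0.13. *Lrp1*, *Clu* and *Lipa* differed by -0.12, -0.01 and 0.14, none past the threshold, and *Vldlr*, also below the filter, had 16.9 ± 8.04 CPM in mutants and 16.9 ± 9.22 CPM in controls.

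In cortical microglia, where 0.144% of 2775 genes were called, edgeR called 0 of 5 tested members, and DESeq2 called 0. Of these members 0 had an unadjusted p under 0.05, beside 156 of all genes. *Apoe* was 89.6, 208 and 477 CPM in mutants and 78.7, 150 and 445 CPM in controls (lowest, median and highest), with wide overlap. The difference was 0.35 (SE 0.35, adjusted p = 0.984). The other tested differences were 0.62 for *Apod* (SE 0.34), 0.04 for *Abca1*, -0.01 for *Lrp1* and -0.15 for *Lipa*. On the log2(CPM + 1) scale *Apoe* of mutants was 0.57 higher among shallow libraries and 0.05 higher among deep ones. The deep ones include controls 2 and 6, which had lost most of their cortical barcodes. The test of whether the genotype difference of *Apoe* itself differed between regions gave 0.52 (SE 0.39, unadjusted p = 0.195), so a difference confined to the deep brain was not shown. This fit did not pair the regions of a mouse, and with the mouse as a block 0 of 8 tested members were called.

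**Figure D3:**
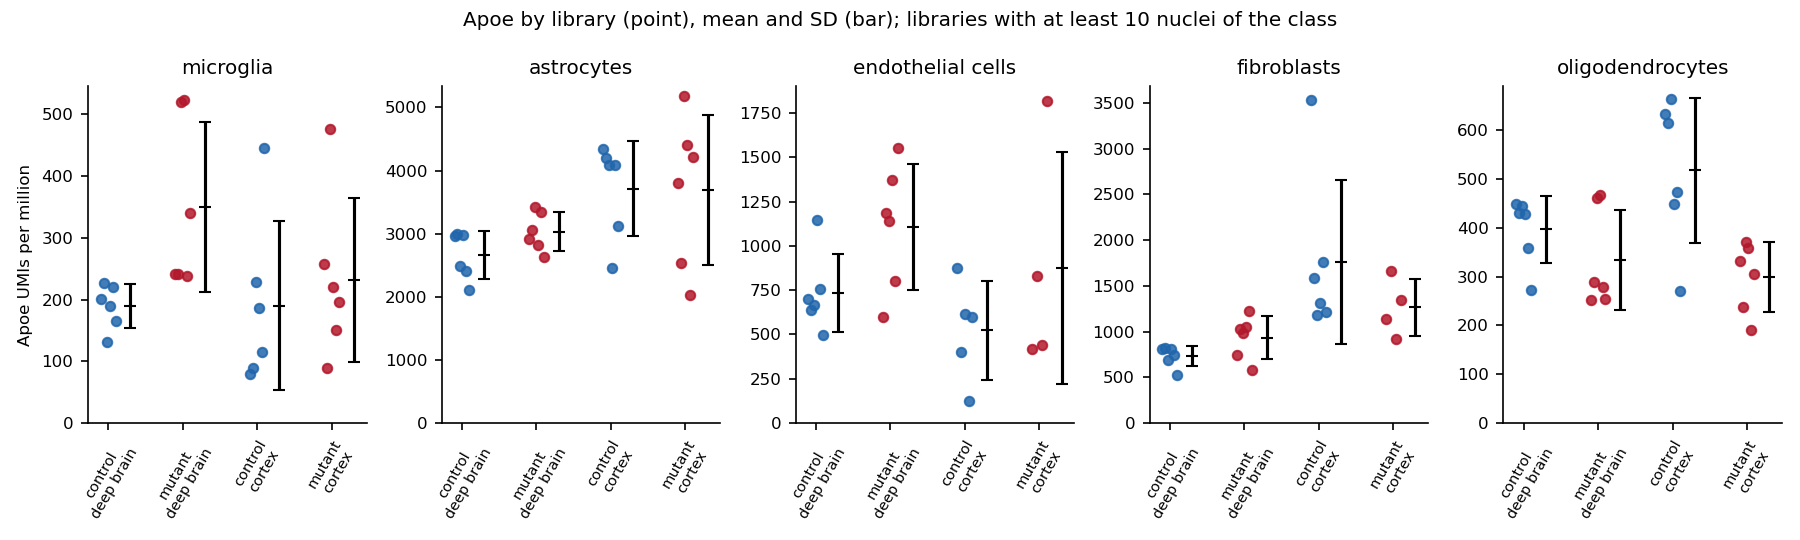
*Apoe* level (CPM) per library in microglia, astrocytes, endothelial cells, fibroblasts and oligodendrocytes, by region and genotype, with the mean and SD of each group. Mutant and control libraries do not overlap in deep brain microglia, and control fibroblasts of the cortex lie above those of the deep brain.

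Endothelial cells form the blood-brain barrier, and those of the deep brain were compared over 322 mutant and 347 control nuclei, 23 to 79 per library. *Apod* was 367, 624 and 877 CPM in mutants and 230, 329 and 490 CPM in controls (lowest, median and highest). The ranges overlapped slightly. *Apod* rose by 0.90 on the log2 scale in mutants (SE 0.22, interval 0.47 to 1.34, 1.87-fold, adjusted p = 0.0396), the 1 call among 6 tested members where 1.66% of 3564 genes were called. DESeq2 called it too. The change was 0.61 (adjusted p = 0.358) without mutants 3 and 4, and 0.77 (adjusted p = 0.231) without nuclei that held a UMI of *Rbfox3*, *Mbp*, *Aqp4* or *Csf1r*, markers of other classes. With mice matched by age as a block it was 0.88 (adjusted p = 0.0561). Single libraries left out gave 0.78 to 1.06, and the call was lost without controls 1, 2, 4 or 6 or mutants 3, 4 or 5 (adjusted p up to 0.122). *Apod* also leaned higher in mutants in each other tested class of the deep brain, without passing the threshold in the fits as reported. The summed mural markers in the endothelial nuclei were 590 CPM in mutants (77.2 to 1325) and 2646 in controls (1081 to 4003), and the fibroblast markers were 139 (25.7 to 260) and 119 (24.0 to 287). Their part in the result was not tested.

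*Abca1* of deep brain endothelial cells was 105 to 206 CPM in mutants and 45.7 to 163 CPM in controls. The difference of 0.80 (SE 0.26) missed the threshold (adjusted p = 0.148). *Apoe* was 599 to 1555 CPM against 498 to 1145 (0.60, SE 0.22, adjusted p = 0.215), and *Lrp1* differed by -0.54 (SE 0.37, adjusted p = 0.672), *Clu* by 0.12 and *Lipa* by 0.27. *Abca1*, *Apoe* and *Apod* also had positive differences in cortical endothelial cells, of 1.03 (SE 0.41), 0.73 (SE 0.53) and 0.60 (SE 0.50), over 4 mutant and 5 control libraries. *Lrp1*, *Clu* and *Lipa* differed there by -0.47, -0.25 and 0.46. With edgeR 0 of 6 members and 0 of 3669 genes were called there (0.0%), 1 member and 162 genes had an unadjusted p under 0.05, and DESeq2 called 13, none of them a member.

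Astrocytes are the known main source of brain *Apoe*. In the deep brain *Apoe* was 2624, 2990 and 3427 CPM in mutants and 2106, 2727 and 2991 CPM in controls (lowest, median and highest). The difference was 0.18 (SE 0.11, adjusted p = 0.455). With edgeR 0 of 8 tested members were called, where 5.04% of 12773 genes were, and DESeq2 called 0. An unadjusted p under 0.05 was seen for 2 members, and for 2351 of all genes. Those 2 were *Abcg1*, with 8.51 to 14.8 CPM against 5.21 to 9.59 (0.50, SE 0.18, adjusted p = 0.132), and *Apod*, with 119 to 187 CPM against 63.3 to 149 (0.39, SE 0.15, adjusted p = 0.161). *Clu* was 781 to 1057 CPM in mutants and 812 to 1213 CPM in controls (-0.19, SE 0.11, adjusted p = 0.425), and the differences were 0.05 for *Abca1*, -0.12 for *Lrp1*, -0.04 for *Vldlr* and 0.10 for *Lipa*. In cortical astrocytes 1.9% of 6962 genes and 0 of 7 members were called by edgeR, and DESeq2 called 0 members. There 848 genes, 1 member among them, had an unadjusted p under 0.05. That member was *Abca1*, higher by 0.34 (SE 0.13, adjusted p = 0.253). *Apoe* differed there by -0.02 (SE 0.18) and *Clu* by -0.37 (SE 0.21, adjusted p = 0.525). *Lrp1*, *Apod*, *Vldlr* and *Lipa* differed by 0.05, -0.37, -0.09 and 0.36.

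The make-up of the deep brain samples differed between genotypes. Astrocytes there fell into 3 clusters, numbered 2.0, 2.1 and 2.7, with 4523, 1195 and 68 mutant and 3218, 1402 and 11 control nuclei. Of the neurons, a cluster led by *Fat2* and *Gabra6*, genes of cerebellar granule cells, held 4134 mutant and 623 control nuclei. Within astrocyte cluster 2.0 alone *Apod* was 0.38 higher in mutants (adjusted p = 0.13), and within 2.1 alone 0.36 (adjusted p = 0.322). The part of the tissue taken in the other deep brain comparisons was not tested.

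Fibroblasts lie in the brain's coverings and along its larger vessels. Between genotypes in the deep brain edgeR called 0 of 6 tested members and 0 of 7598 genes (0.0%), 1 member and 445 genes had an unadjusted p under 0.05, and DESeq2 called 1, which was no member. *Apoe* was 579, 1007 and 1220 CPM in mutants and 523, 778 and 816 CPM in controls (lowest, median and highest; 0.33, SE 0.16, adjusted p = 0.844). *Abca1*, *Lrp1*, *Clu*, *Apod* and *Lipa* differed by 0.02, -0.10, -0.28, 0.21 and 0.15. In the cortex *Apoe* was 924 to 1657 CPM in 4 mutants and 1184 to 3534 CPM in 6 controls (-0.51, SE 0.32, adjusted p = 0.988), and *Clu* differed by -0.74 (SE 0.39, adjusted p = 0.988), *Abca1* by 0.32, *Lrp1* by -0.10 and *Apod* by -0.11. There edgeR called 0 of 5 members and 0 of 3563 genes (0.0%), 0 members and 141 genes had an unadjusted p under 0.05, and DESeq2 called 0.

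Oligodendrocytes are the myelinating glia. In the cortex *Apoe* was 190, 319 and 370 CPM in mutants and 271, 544 and 663 CPM in controls (lowest, median and highest). The medians stood apart but the ranges overlapped, and the difference of -0.76 (SE 0.19) just missed the threshold (adjusted p = 0.0598). The difference was -0.84 among shallow and -0.83 among deep libraries on the log2(CPM + 1) scale. The deep ones were mutants 5 and 6 and controls 2, 5 and 6. Controls 2 and 6 had lost most of their cortical barcodes, so this split did not balance library quality. The *Apoe* difference passed in 7 of 22 alternatives, among them DESeq2 (adjusted p = 0.0133) and a fit with a term for shallow libraries (-0.82, adjusted p = 0.00778). In those where it did not pass, the adjusted p went up to 0.289. *Abca1* was 109 to 165 CPM in mutants and 77.2 to 129 CPM in controls (0.47, SE 0.13, adjusted p = 0.0987). *Clu*, *Lrp1* and *Apod* differed by -0.63, -0.40 and 0.36, and *Abcg1*, *Vldlr* and *Lipa* by -0.07, 0.03 and -0.09. With the replicate number as a block, 4 of the 8 tested members passed, namely *Apoe* (-0.75, adjusted p = 0.00438), *Clu* (-0.65, 0.0142), *Apod* (0.38, 0.0253) and *Abca1* (0.45, 0.0381), where 499 of all genes did. With mice matched by age as a block *Apoe* (-0.73, adjusted p = 0.000676), *Apod* (0.38, 0.0168) and *Abca1* (0.47, 0.0242) passed and *Clu* did not (-0.62, 0.0904), where 395 of all genes did. Over all 22 alternatives *Abca1* passed in 4, *Apod* in 2 and *Clu* in 1, with adjusted p up to 0.615, 0.697 and 0.754. Without a block edgeR called 0 of 8 tested members and 0.989% of 10108 genes, and DESeq2 called *Apoe* alone of the members. Unadjusted, 4 members and 1305 of all genes had an edgeR p under 0.05. In the deep brain edgeR called 0 of 8 members and 1.66% of 13515 genes, and DESeq2 called 0 members. There 2 members and 1994 of all genes had an unadjusted p under 0.05. *Apod* was 1250 to 1632 CPM in mutants and 981 to 1551 in controls (0.35, SE 0.11, adjusted p = 0.146), and *Apoe* differed by -0.23 (SE 0.17, adjusted p = 0.573). *Abca1* differed by 0.29, *Clu* by -0.18, *Vldlr* by 0.12, *Abcg1* by -0.09, *Lipa* by 0.02 and *Lrp1* by -0.01.

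*Lpl* passed the filter on low counts in no genotype comparison, and *Vldlr* only in astrocytes and oligodendrocytes. Fitted without the filter, no member that it had left out passed the threshold.

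**Figure D4:**
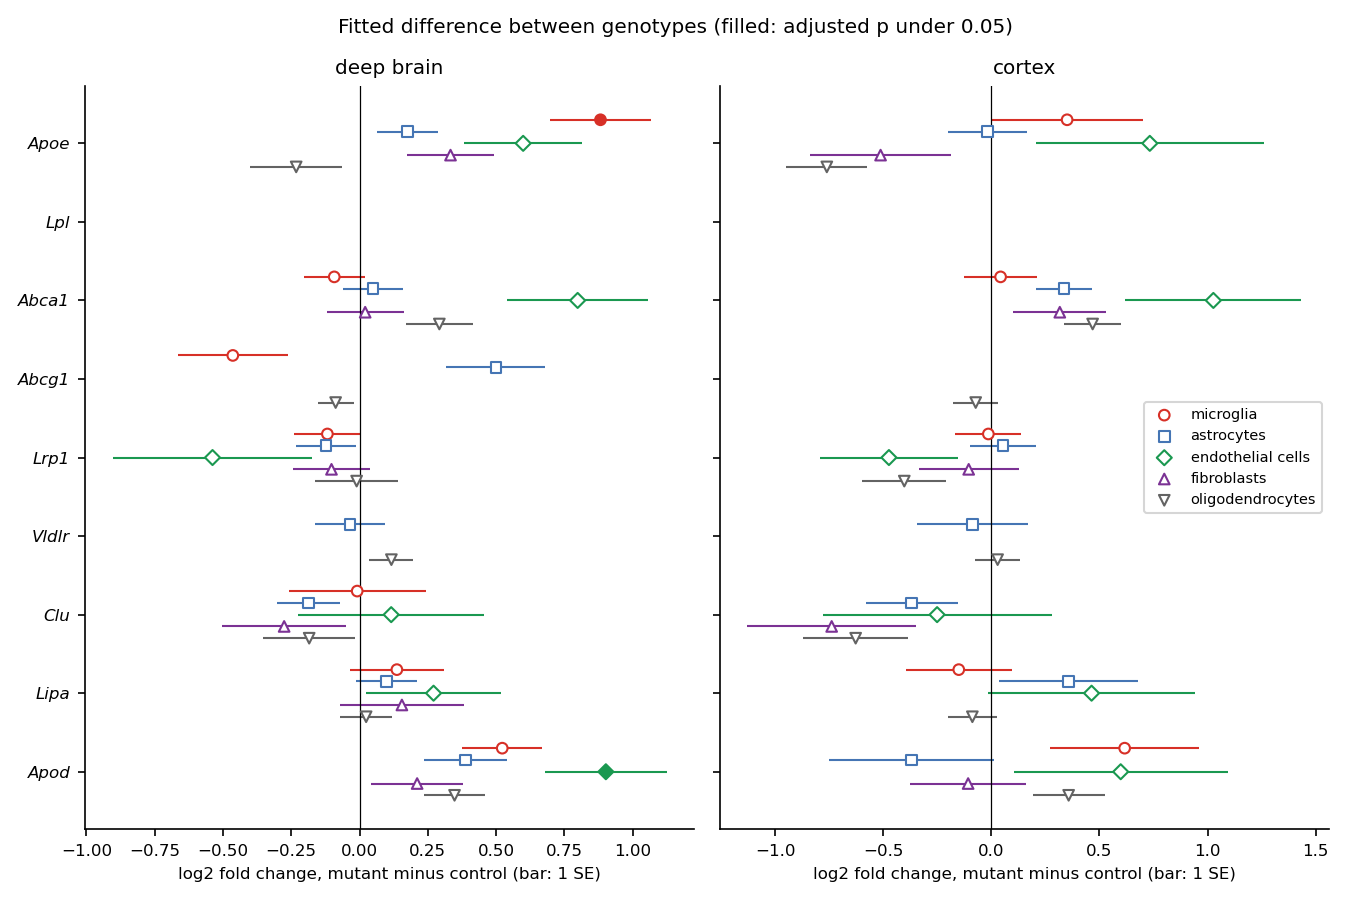
Log2 difference between mutants and controls for each tested gene, by cell class, in the deep brain and the cortex, with bars of 1 SE on either side. Filled marks passed the adjusted threshold, and these were *Apoe* in deep brain microglia and *Apod* in deep brain endothelial cells.

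The next comparison set the deep brain against the cortex in the 6 control mice. The fit as reported did not pair the regions of a mouse. With the mouse as a block, 4 of 8 tested members were called in astrocytes, 2 of 9 in oligodendrocytes and 1 of 7 in microglia. In endothelial cells and fibroblasts the block called as many members as the fit without it. Cortical *Clu* of astrocytes was 1720, 2315 and 3412 CPM and deep brain *Clu* was 812, 1002 and 1213 CPM (lowest, median and highest). The ranges did not overlap, and the deep brain was lower in 6 of 6 mice. *Clu* fell by 1.34 on the log2 scale from cortex to deep brain (SE 0.17, 2.53-fold, adjusted p = 1.55e-05). The mean difference within mice was -1.31 where the cortical library was shallow and -1.24 where it was deep. The deep ones were those of controls 2, 5 and 6, and controls 2 and 6 had lost most of their cortical barcodes. *Apoe* of astrocytes was 2463 to 4344 CPM in the cortex and 2106 to 2991 CPM in the deep brain. It fell by 0.50 (SE 0.14, 1.42-fold, adjusted p = 0.0171), with a lower value in 5 of 6 mice. That call was lost without control 2, 3 or 5 (adjusted p = 0.0561, 0.0659 and 0.0841). *Clu* and *Apoe* were the 2 calls among 8 tested members, where 11.0% of 11857 genes were called.

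The exporter gene *Abca1* and the receptor gene *Lrp1* of astrocytes leaned the other way. *Abca1* was 331 to 447 CPM in the deep brain and 205 to 367 CPM in the cortex (0.33, SE 0.12, adjusted p = 0.097), and *Lrp1* was 243 to 354 CPM against 169 to 299 CPM (0.29, SE 0.13, adjusted p = 0.181). Both were higher in the deep brain in 6 of 6 mice. With the mouse as a block, which pairs the regions of 1 animal, both passed (0.34, adjusted p = 0.00872, and 0.31, adjusted p = 0.0362). *Abcg1*, *Vldlr*, *Apod* and *Lipa* differed by -0.62, -0.28, 0.28 and 0.35, none past the threshold.

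Fibroblast *Apoe* was 1184, 1445 and 3534 CPM in the cortex and 523, 778 and 816 CPM in the deep brain of controls (lowest, median and highest), without overlap. It fell by 1.30 (SE 0.25, 2.47-fold, adjusted p = 0.00539) and was lower in 6 of 6 mice. Every fit that left out 1 control kept the call, with differences from -1.40 to -1.01. *Clu* was 87.8, 441 and 595 CPM in the cortex and 92.3, 141 and 240 CPM in the deep brain, and fell by 1.40 (SE 0.30, 2.65-fold, adjusted p = 0.0114) with 5 of 6 mice lower. Its call was lost without control 1, 5 or 6 (adjusted p = 0.0524, 0.0782 and 0.0736). These were 2 of 6 tested members, where 1.94% of 5976 genes were called. *Abca1*, *Lrp1*, *Apod* and *Lipa* differed by 0.24, -0.07, 0.06 and -0.37, and *Abca1* was higher in the deep brain in 6 of 6 mice. The summed astrocyte markers moved with *Apoe* and *Clu*, at 2038 CPM (1141 to 3181) in cortical and 941 CPM (716 to 1194) in deep brain fibroblasts. Too few cortical nuclei were left for a fit once those with a UMI of *Rbfox3*, *Mbp*, *Aqp4*, *Csf1r* or *Cldn5* were removed, which leaves the astrocyte markers other than *Aqp4*. The 2 control libraries that remained had a mean *Apoe* of 1283 CPM, against 697 in the deep brain, while their astrocyte markers were still 1806 against 940 CPM.

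Endothelial *Lrp1* was 149, 197 and 252 CPM in 5 cortical control libraries and 0, 87.5 and 126 CPM in 6 of the deep brain (lowest, median and highest). The ranges did not overlap. *Lrp1* fell by 1.45 (SE 0.37, 2.74-fold, adjusted p = 0.00673) and was lower in 5 of 5 mice, the 1 call among 6 tested members where 29.5% of 3468 genes were called. The neuron markers summed in these nuclei were 3480 CPM (1683 to 4984) in the cortex and 855 CPM (673 to 1280) in the deep brain, while the endothelial markers were 5479 and 16826 CPM. The fibroblast markers were 834 CPM (123 to 1268) in the cortex and 119 CPM (24.0 to 287) in the deep brain, and the cortical endothelial cluster had 8 of 8 fibroblast markers above 2-fold the level of other nuclei, the deep brain cluster 2 of 8. In the cortex the *Lrp1* level was 121 ± 9.58 CPM in neurons and 491 ± 94.0 CPM in fibroblasts, the highest mean of the 8 classes. The part of other cell classes in this difference was not tested. *Apod*, *Lipa*, *Apoe*, *Clu* and *Abca1* of these cells differed by -0.62, 0.57, 0.23, -0.21 and -0.02, none past the threshold, and *Lipa* was higher in the deep brain in 5 of 5 mice.

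In oligodendrocytes *Abca1* was 118, 131 and 139 CPM in the deep brain and 77.2, 95.5 and 129 CPM in the cortex (lowest, median and highest), with partial overlap. It rose by 0.36 (SE 0.10, adjusted p = 0.0413) and was higher in 6 of 6 mice, 1 of 9 tested members where 7.41% of 12700 genes were called. The call was lost in 6 of 11 alternatives, with adjusted p from 0.0674 to 0.142. *Apoe* differed by -0.39 (SE 0.17, adjusted p = 0.227), and with the mouse as a block by -0.36 (adjusted p = 0.0049). *Lpl*, *Lrp1*, *Clu*, *Abcg1*, *Vldlr*, *Apod* and *Lipa* differed by -0.81, -0.57, -0.38, 0.15, -0.12, 0.03 and 0.005. In microglia 2 members and 682 of all genes had an unadjusted p under 0.05 between regions. There edgeR called 0 of 7 members and 2.5% of 6273 genes, and DESeq2 called 1 member. That was *Apod*, higher by 0.89 in the deep brain (SE 0.26, edgeR adjusted p = 0.0569, with the mouse as a block 0.87 and adjusted p = 0.0293). Microglial *Apoe* differed by 0.13 between regions (SE 0.24, adjusted p = 0.936), *Abca1* by -0.14, *Clu* by 0.14, *Lrp1* by -0.12 and *Abcg1* by -0.07. *Lipa* differed by -0.57 (SE 0.23, adjusted p = 0.304), with a lower value in the deep brain in 6 of 6 mice.

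**Figure D5:**
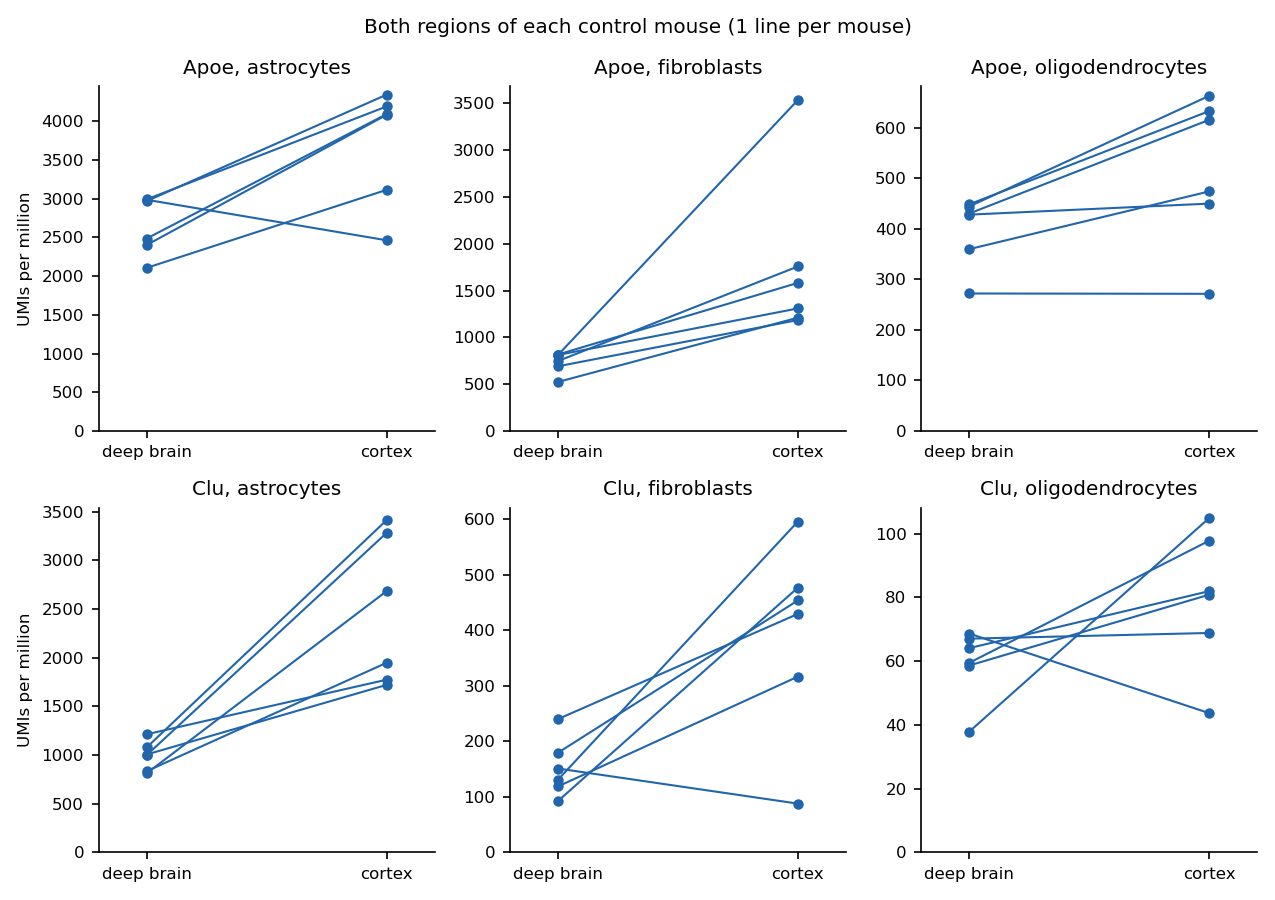
Levels (CPM) of *Apoe* and *Clu* in astrocytes, fibroblasts and oligodendrocytes, with the deep brain and the cortex of each control mouse joined by a line. *Clu* of astrocytes and *Apoe* of fibroblasts are lower in the deep brain in 6 of 6 mice.

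Whether the genotype differences themselves differed between regions was tested in each of the 5 classes. With edgeR 0 of 5195 to 13640 genes were called (0.0% in each class), and 221 to 626 genes had an unadjusted p under 0.05. DESeq2 called 4 genes in oligodendrocytes, none of them a member, and 0 in the other classes. Of the members 1 had an unadjusted p under 0.05, *Apoe* of fibroblasts, with a genotype difference 0.78 higher in the deep brain than in the cortex (SE 0.33, unadjusted p = 0.0254). *Apoe* of oligodendrocytes gave 0.51 (SE 0.27, unadjusted p = 0.0653). The other tested members lay between -0.34 (*Abca1* of fibroblasts) and 0.85 (*Abcg1* of astrocytes, SE 0.47, unadjusted p = 0.082).

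A list of 67 further genes of lipoprotein and cholesterol handling was followed beside the members. Between genotypes edgeR called 6 of the 43 that could be tested in deep brain astrocytes, where 5.04% of all genes were called. *Scarb1*, a receptor for high-density lipoprotein, rose by 1.26 (adjusted p = 0.001), and *Abca3*, a phospholipid transporter, by 0.51 (adjusted p = 0.00119). *Mgll*, which encodes monoacylglycerol lipase, fell by 0.70 (adjusted p = 0.0113), the lipid droplet coat gene *Plin3* by 0.55 (adjusted p = 0.0323), *Npc1*, which exports lysosomal cholesterol, by 0.32 (adjusted p = 0.042), and *Soat1*, which esterifies cholesterol, by 0.30 (adjusted p = 0.0419). The median over the 43 genes was -0.02, beside -0.003 over all genes tested. The calls of *Scarb1*, *Abca3* and *Mgll* held in all 23 alternatives, while those of *Npc1*, *Soat1* and *Plin3* were lost in 16, 13 and 11 of 23. In astrocyte cluster 2.0 alone *Npc1* did not pass (-0.25, adjusted p = 0.203), and in 2.1 alone *Npc1* (-0.29, 0.146), *Soat1* (-0.23, 0.279) and *Plin3* (-0.28, 0.718) did not. In cortical astrocytes *Mgll* fell by 0.92 (adjusted p = 0.00584) and *Abca5* by 0.70 (adjusted p = 0.0144), 2 of 23 genes where 1.9% of all genes were called. These calls were lost in 2 and 3 of 22 alternatives (adjusted p up to 0.134 and 0.146). In cortical oligodendrocytes, where 0.989% of all genes were called, 1 of 34 was, *Plin3*, which rose by 0.62 (adjusted p = 0.0441). That call was lost in 11 of 22 alternatives, with adjusted p up to 0.289, and 3 of the 12 fits that left out a library kept it.

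In microglia edgeR called 0 of 30 of these genes in the deep brain and 0 of 17 in the cortex, where 4 and 2 had an unadjusted p under 0.05. In endothelial cells it called 0 of 15 and 0 of 13 (1 and 0 unadjusted), in fibroblasts 0 of 27 and 0 of 14 (0 unadjusted in both), and in deep brain oligodendrocytes 0 of 44 (11 unadjusted). DESeq2 called 0 in each of these 7 comparisons. Of all genes edgeR called 0.151% and 0.144% in microglia of deep brain and cortex, and 1.66% and 0.0% in endothelial cells. It called 0.0% in fibroblasts of both regions and 1.66% in deep brain oligodendrocytes, so 0 calls in lists of this size do not set these genes apart. An unadjusted p under 0.05 was seen for 1994 of 13515 genes in these oligodendrocytes and for 460 of 7300 in deep brain microglia. It was seen for 156 of 2775 in cortical microglia and for 365 of 3564 in deep brain endothelial cells. None of the 8 further apolipoprotein genes was high enough to be tested in any class.

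Between regions 11 of 43 genes were called in control astrocytes, where 11.0% of all genes were. Higher in the deep brain were *Cyp27a1* (1.28), *Mylip* (1.25), *Pltp* (0.97), *Lrp1b* (0.56) and *Sorl1* (0.51). Lower there were *Mgll* (-1.12), *Lrp4* (-0.98), *Abca5* (-0.78), *Cyp46a1* (-0.70), *Sort1* (-0.55) and *Npc1* (-0.50). The calls of *Cyp27a1* and *Mylip* were lost in 2 of 11 alternatives each (adjusted p up to 0.0787 and 0.117), and those of *Pltp* and *Cyp46a1* in 1 of 11 each (0.133 and 0.149). Endothelial cells had 5 of 14 called, a share near the 29.5% of all genes, with *Lrp1b* (-3.60), *Sorl1* (-2.26) and *Lrpap1* (-1.01) lower in the deep brain and *Lrp5* (1.39) and *Lsr* (1.17) higher. As given for *Lrp1*, neuron markers in these nuclei were higher in the cortex (3480 against 855 CPM) and endothelial markers lower (5479 against 16826 CPM), fibroblast markers were higher there too (834 against 119 CPM), and their part in these differences was not tested. Fibroblasts had 1 of 25 (*Abca8a*, 1.58) and microglia 1 of 25 (*Lrp1b*, -0.97), where 1.94% and 2.5% of all genes were called. The call of *Abca8a* was lost in 3 of 10 alternatives and that of *Lrpap1* in 4 of 10. In oligodendrocytes *Lrp8* (-0.81) and *Cyp46a1* (-0.64) were lower in the deep brain, and their calls were lost in 7 and 4 of 11 alternatives.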

How the data were processed

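Nuclei of 24 libraries were sequenced with the 10x Genomics 5′ chemistry. Per the submitters' processing notes, the authors made reads with bcl2fastq 2.20.0.422 and counted them with Cell Ranger 5.0.1 on mm10, and the study's methods state that intronic reads were included. The authors deposited whole UMI counts per gene and barcode, without normalization. Positions are those of GENCODE vM21 (GRCm38), in which the identifiers of all 9 genes were found.

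Barcodes with over 500 and under 7000 detected genes and mitochondrial UMIs below 20% were retained. After scaling to 1000 UMIs and log transformation, 2000 variable genes without the members gave 20 components (pandas 2.3.3, numpy 2.4.6, scipy 1.17.1 and scanpy 1.11.5 under Python 3.11.15). Louvain clusters (Seurat 5.3.0, 20 neighbours) were made at a resolution of 0.01, and those of several classes again at 0.1. Names needed 3 or more markers of a class above 2-fold the level of other nuclei (CPM + 10). No doublet caller was run. In the 5 classes tested, clusters of a median depth above 1.75 times that of the largest cluster of their class were left out as mixed, while no such limit was set for the other classes. Also left out were microglia with a UMI of *Mrc1*, *Mbp*, *Aqp4* or *Rbfox3*.

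Counts were summed per class and library, of at least 10 nuclei, and tested with edgeR 4.0.16 (R 4.3.3, filterByExpr, TMM factors, quasi-likelihood test, Benjamini-Hochberg adjustment over all genes tested, threshold 0.05). SE is the absolute log2 change over the square root of F. DESeq2 1.42.0 was the other count model. Scripts were tested on simulated counts for the genotype comparisons of the deep brain. Regions were paired by mouse from the labels. The design was fitted without a block, and the block was an alternative. Further alternatives were no filter on low counts, RLE size factors, below 5% mitochondrial UMIs, classes taken from marker UMIs, removal of nuclei with another class's markers, blocks by replicate number or age, and each library left out. Mixed clusters kept, single clusters alone, a term for shallow libraries, mutants 3 and 4 left out, and removal in the region comparison were chosen after seeing the data.

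Each tested member is given for every comparison between genotypes and between regions, and for the interaction those with the lowest p are named and the others given by their range. Of the 67 further genes, the rule was to name those called, up to 10 per comparison by adjusted p. The last of 11 called in astrocytes between regions was named beyond it, and a result of the region comparison in oligodendrocytes is not reported here. The members and lists were chosen with earlier results of these data known. Each library is 1 mouse and region. Intervals for pooled counts cover counting error only.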

Additional observations from a re-analysis of the deposited data

Results flagged for a closer look

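Of 154 groups of 4 to 6 libraries with at least 30 UMIs of a member, 10 held a library whose gap to its nearest neighbour was large against the range of its group by Dixon's test at 95%, where chance gives about 5%. In deep brain microglia of mutants these were *Lrp1* of mouse 6 with 385 CPM (next 328) and *Clu* of mouse 4 with 155 CPM (next 73.1). In cortical microglia of mutants *Apod* of mouse 4 was 217 CPM (next 123). In endothelial cells of controls *Clu* of mouse 1 was 479 CPM in the cortex (next 159, 35 UMIs in 13 nuclei), and *Clu* of mouse 3 was 431 CPM in the deep brain (next 185).

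Cortical fibroblasts of control mouse 1 gave both *Apoe* at 3534 CPM (next 1757, 190 UMIs) and *Apod* at 2958 CPM (next 1682), from 11 nuclei. *Lipa* of cortical fibroblasts was 103 CPM in control mouse 3 (next 46.4, 12 UMIs). In oligodendrocytes the lowest libraries stood apart, with *Lipa* at 66.0 CPM in the cortex of control mouse 5 (next 86.7) and *Clu* at 37.8 CPM in the deep brain of control mouse 3 (next 58.6). Causes of these single values were not tested.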

How the results depend on the processing

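Numbers of genes called over all genes moved with the settings as follows, with the count as reported in parentheses. Without the filter on low counts they were 86 (11) in deep brain and 59 (4) in cortical microglia, 298 (132) in cortical astrocytes, 169 (59) and 106 (0) in endothelial cells of deep brain and cortex, 113 (0) and 8 (0) in fibroblasts, 189 (100) in cortical oligodendrocytes, 236 (157), 2272 (1022) and 370 (116) between regions in microglia, endothelial cells and fibroblasts, and 7, 1, 26 and 26 (0 each) for the interaction in microglia, astrocytes, endothelial cells and fibroblasts. DESeq2 gave 8 in cortical microglia, 13 in cortical endothelial cells, 1 in deep brain fibroblasts, 489 (225) and 214 in deep brain and cortical oligodendrocytes, and 4 for their interaction. The block by replicate number gave 9 in cortical microglia, 274 in cortical astrocytes, 1 in cortical endothelial cells, 1 in deep brain fibroblasts and 499 in cortical oligodendrocytes, and the block by mouse gave 5 and 6 for the interaction in astrocytes and oligodendrocytes. The block by age gave 7, 203, 3 and 395 in cortical microglia, cortical astrocytes, deep brain fibroblasts and cortical oligodendrocytes. Microglia kept without removal gave 17 in the cortex. Classes from marker UMIs gave 62 in cortical astrocytes and 20 in cortical oligodendrocytes. Removal of nuclei with other markers gave 36 in cortical astrocytes, 802 (1303) between regions in astrocytes and 37 in deep brain endothelial cells. Mixed clusters kept gave 419 (644) and 79 in deep brain and cortical astrocytes and 8 in deep brain endothelial cells. Astrocyte cluster 2.1 alone gave 404, fibroblast cluster 7.0 alone 6, both mutants 3 and 4 left out 21 in deep brain endothelial cells, and the term for shallow libraries 334 in cortical oligodendrocytes. Leaving out 1 library or mouse gave 9 to 15 in deep brain and 3 to 11 in cortical microglia, 357 to 1073 and 95 to 230 in astrocytes, 35 to 104 and 0 to 6 in endothelial cells, 0 to 5 and 0 in fibroblasts, and 98 to 502 and 52 to 174 in oligodendrocytes. Between regions it gave 107 to 158, 929 to 1202, 692 to 1157, 52 to 106 and 608 to 877 in these classes, and for the interaction 0 to 1 in astrocytes and 0 elsewhere. The cause of these shifts was not tested.

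No call of a member turned its direction under any setting. Mutants and controls of equal number had equal ages for numbers 1 to 4, but the labels name no shared litter or day. The deviations of equal numbers correlated at -0.165 to 0.506, in no comparison over 0.1 for every pair. Of the mutants, 5 of 6 in cortical and 4 of 6 in deep brain microglia matched the control of their own number best. In oligodendrocytes 3 of 6 did in either region, and in each other comparison 1 or 2 did. Whether equal numbers form pairs was not settled. With the replicate number as a block, members of cortical oligodendrocytes passed, namely *Apoe* (-0.75, adjusted p = 0.00438), *Clu* (-0.65, 0.0142), *Apod* (0.38, 0.0253) and *Abca1* (0.45, 0.0381). Over all 22 alternatives, this block among them, they passed in 7, 1, 2 and 4. *Apoe* of deep brain microglia ranged from 0.48 to 0.98 over 23 alternatives and passed in 10, and *Apod* of deep brain endothelial cells passed in 11 of 22. *Abca1* of deep brain endothelial cells passed with classes from marker UMIs (1.13, adjusted p = 0.0310) and without control 5 (1.08, 0.0332). Removal of nuclei with other markers could not be fitted in cortical fibroblasts and endothelial cells, nor could classes from marker UMIs in the latter, for want of libraries. Simulated counts were made for no cortical comparison, so what its shallow libraries could detect was not measured.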

Other observations

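The genes whose mean levels ran most like those of each member were listed over 19 points, each a cell class in 1 region, among 9736 genes that reached 50 CPM in at least 1 of them. The correlations are Pearson's r of log2(CPM + 1) and are given as a description, since the points share libraries and cell classes. The 3 nearest genes to *Apoe* were *Sdc4* (0.87), *Cd38* (0.83) and *Fgd6* (0.83). *Clu* was closest to *C030037D09Rik* (0.95), *Gm973* (0.95) and *Tmem47* (0.94), and *Apod* to *Ptgds* (0.95), *Atl3* (0.92) and *Abhd5* (0.91). *Lpl* was closest to *Tanc2* (0.82), *Rassf5* (0.81) and *Abcb4* (0.78).

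For the exporters the nearest genes were *Mkln1* (0.92), *Nrf1* (0.91) and *Fuca1* (0.90) for *Abca1*, and *March1* (0.90), *Bin1* (0.87) and *Mast3* (0.87) for *Abcg1*. *Lrp1* was closest to *Arhgef10l* (0.89), *Ampd3* (0.88) and *Fchsd2* (0.86). *Vldlr* was closest to *Sytl2* (0.92), *Map7* (0.92) and *Atp10b* (0.91), and *Lipa* to *Pdcd6ip* (0.88), *Adam10* (0.85) and *Exoc5* (0.84).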
